A study of Mus musculus with 48 samples.

Results

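The data concern the chromatin around 6 genes of the neural lineage, Sox1, Pax6, Nes, Zic1, Neurog2 and Olig2, in mouse embryonic stem cells. The members were chosen by name, and their neighbourhoods were taken as each gene's mm10 span with 50 kb added on either side. Of 1444924 peaks in 22 peak lists, 608 touched one of these 6 windows. FLAG antibody lists gave 88 of them, SMC3 antibody lists 374, the CTCF antibody list of untreated cells 92 and that of treated cells 54.

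The cells were E14Tg2a, a feeder-free embryonic stem cell line of strain 129/Ola, grown with leukemia inhibitory factor and inhibitors of GSK3 and MEK. In all of them the endogenous CTCF carried an auxin-inducible degron, and each line held a doxycycline-inducible FLAG-tagged Ctcf transgene, either wild type (WT) or 1 of 9 mutants of the binding domain (S354F and K365T, the pair R377C and R377H, R339Q, R342C, Q418R, R448Q and H455R). Treated cells received 500 µM indole-3-acetic acid, an auxin given to remove the endogenous protein, and 1 µg/ml doxycycline for 2 days. Untreated WT cells received neither. The FLAG antibody, which reads the transgene product, and the antibody to the cohesin subunit SMC3 were used in treated cells of all 10 genotypes, and the CTCF antibody in untreated and treated WT cells. Each group had 2 replicates by ChIPmentation, which the authors pooled into 1 list, so no difference below has a replicate check and no test was made. Whether a line was a single clone is not stated in the labels.

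CTCF is a zinc finger protein that binds DNA at a long motif, and the ring-shaped cohesin complex, of which SMC3 is a part, is held at many CTCF sites, where loops and domain borders form. Genes for developmental transcription factors are mostly silent in embryonic stem cells, often under Polycomb marks, and are switched on as cells enter a lineage. Sox1 and Pax6 encode transcription factors of the early neural plate and of neural and eye progenitors. Zic1 encodes a zinc finger factor of the dorsal neural tube and cerebellum, and Neurog2 and Olig2 encode basic helix-loop-helix factors of neurogenesis and of motor neuron and oligodendrocyte progenitors. Nes encodes nestin, an intermediate filament protein of neural progenitors, and is the only member that encodes no transcription factor.

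The lists differed in length, which bears on every count below. FLAG lists held 3855 peaks in H455R, 15392 in WT and 30462 in R377C. SMC3 lists held 42030 peaks in Q418R, 71962 in WT and 153647 in R448Q. The CTCF antibody lists held 175815 peaks untreated and 116973 treated. The number of reads behind each list is not given, and each peak's strength is stated here as the percentile of its deposited value within its own list.

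Nes and Neurog2 were the only members with a WT FLAG peak in their neighbourhoods, Nes with 4 and Neurog2 with 1. Sox1, Pax6, Zic1 and Olig2 had none. The share of members with a WT FLAG peak, 2 of 6, stood beside 63.2% of 21896 protein-coding genes. For WT SMC3 it was 4 of 6, beside 80.1%, with none at Pax6 and Zic1. Untreated CTCF antibody peaks lay near all 6, beside 90.1%, so the genes without a WT FLAG peak still had 3 to 11 such peaks each.

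**Figure D1:**
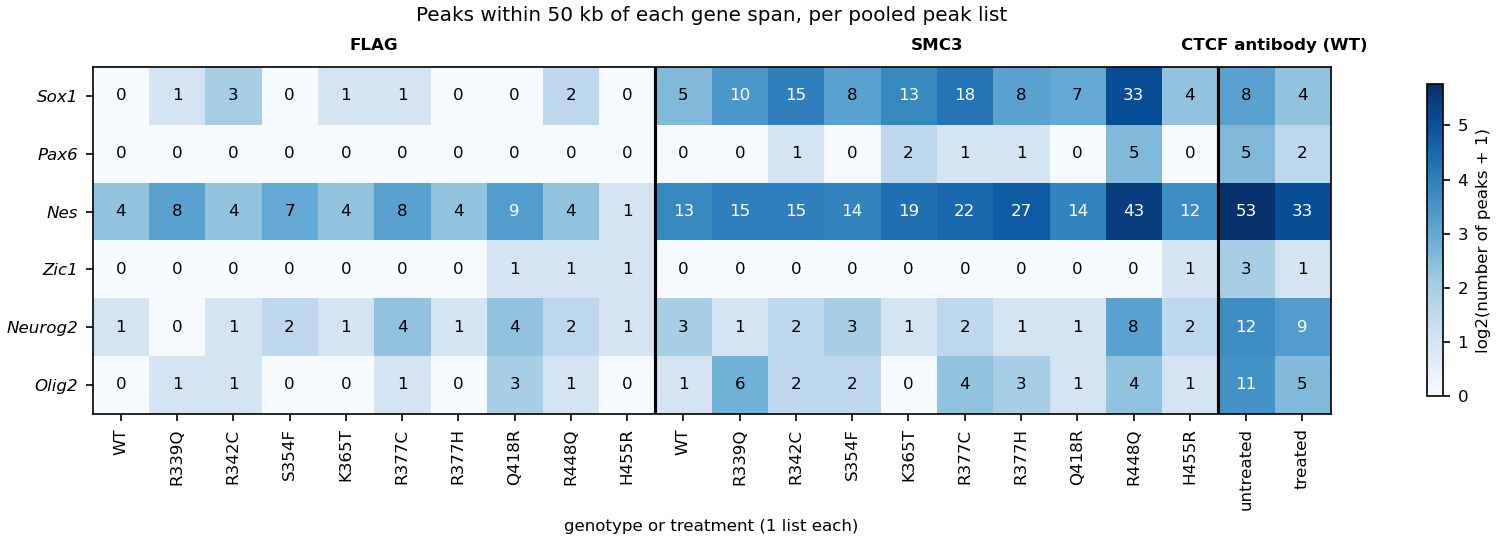
Number of peaks within 50 kb of each gene span (rows) in each of the 22 pooled lists (columns, by antibody and by genotype or treatment). Each cell prints the number, and the shade is log2(number + 1). Nes holds the highest or joint highest number in each list, FLAG counts at Pax6 are 0 throughout, and the highest SMC3 counts at Sox1 and Nes are those of R448Q.

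The promoter stretches of Neurog2 and Nes are shown because a peak of the CTCF antibody or of FLAG covered the gene's start only at these members. They are the 250 bases before the start from RefSeq (GRCm38.p6, which is mm10). AGGNGGC, a core of the CTCF motif, was searched on both strands, and matches are in capitals. Of 32851 promoters of this length, 25.0% held at least 1 match.
Neurog2, chr3:127632886-127633135, plus strand: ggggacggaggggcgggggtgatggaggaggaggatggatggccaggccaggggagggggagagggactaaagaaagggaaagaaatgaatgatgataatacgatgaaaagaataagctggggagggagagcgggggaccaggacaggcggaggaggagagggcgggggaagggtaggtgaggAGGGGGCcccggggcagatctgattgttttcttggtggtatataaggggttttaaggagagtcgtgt
Nes, chr3:87970843-87971092, plus strand: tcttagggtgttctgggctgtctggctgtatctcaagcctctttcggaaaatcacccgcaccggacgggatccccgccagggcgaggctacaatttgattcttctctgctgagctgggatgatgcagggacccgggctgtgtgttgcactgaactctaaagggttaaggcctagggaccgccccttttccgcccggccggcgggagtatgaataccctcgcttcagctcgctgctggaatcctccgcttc
In Neurog2 the single match began 67 bases before the start, and the Nes stretch held none. Among the members without such a covered start, Sox1 had 2 matches, Zic1 and Olig2 had 1 each and Pax6 had none. That says only that these letters are or are not in the window. At the Neurog2 start the covering peaks were the CTCF antibody peaks of untreated and treated WT cells, whereas at Nes the covering peak was the FLAG peak of R339Q. CTCF antibody peaks also overlapped the printed Nes stretch, at percentile 89.1 untreated and 91.8 treated, but they ended before the start.

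Neurog2 carried its WT FLAG peak inside the gene, at chr3:127634097-127634446, 0.961 kb past the start used by RefSeq. Among the WT FLAG peaks near the 6 genes it had the highest percentile, 69.9. A FLAG peak lay on it in 8 of 9 mutants, at percentile 58.6 in R342C, 61.9 in S354F, 27.7 in K365T, 88.9 in R377C, 78.9 in R377H, 67.3 in Q418R, 97.0 in R448Q and 32.1 in H455R. R339Q was the exception and had no FLAG peak anywhere in the Neurog2 window. Even H455R, whose FLAG list is the shortest, had a peak there.

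SMC3 was present at this Neurog2 site in all 10 genotypes, R339Q included. The SMC3 percentile was 84.8 in WT, 84.4 in R339Q, 90.5 in R342C, 44.4 in S354F, 88.1 in K365T, 93.8 in R377C, 92.6 in R377H, 75.7 in Q418R, 98.0 in R448Q and 91.8 in H455R. S354F was thus low and the others lay above 75, and the R339Q value was close to that of WT although no FLAG peak was listed. The CTCF antibody peak over the same place was among the strongest of its lists, at percentile 99.9 untreated (chr3:127633041-127635047) and 99.4 treated.

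Away from that site, the Neurog2 neighbourhood held 5 FLAG sites seen only in mutants. At chr3:127625269-127625646, 7.49 kb before the start, FLAG peaks stood in S354F, R377C and R448Q at percentiles 73.2, 64.3 and 48.6. WT had no FLAG peak there but an SMC3 peak at percentile 59.3. The remaining 4 were in Q418R alone (2 sites), in R377C alone (1 site) or in both (1 site, 6.81 kb past the start). All 6 Neurog2 FLAG sites overlapped an untreated CTCF antibody peak.

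**Figure D2:**
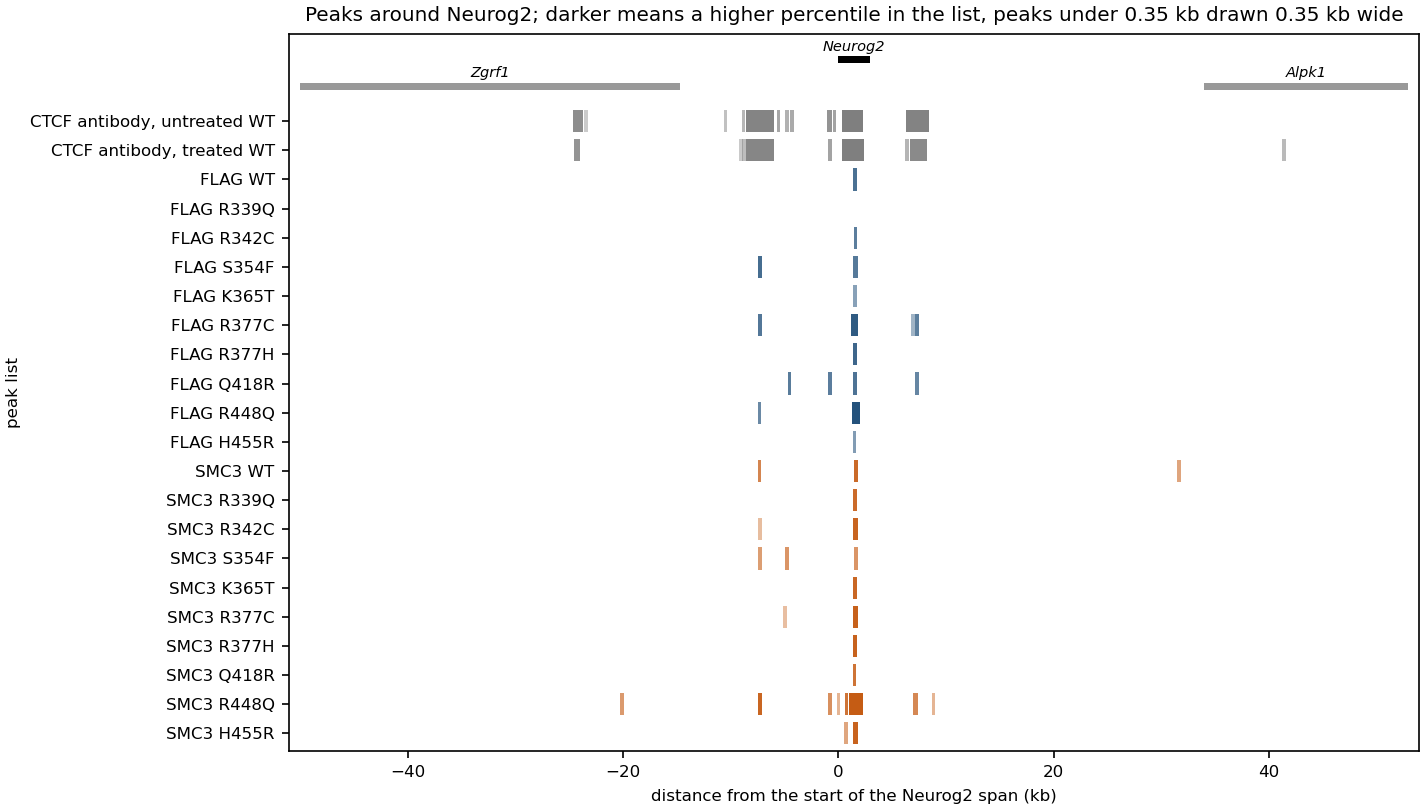
Peaks around Neurog2 in each list (rows), by distance in kb from the first base of the gene's span. CTCF antibody is grey, FLAG blue and SMC3 orange, with darker colour for a higher percentile, and black and light grey bars are gene spans. The FLAG column inside Neurog2 runs through WT and 8 mutants and is empty for R339Q, while the SMC3 column there runs through all 10 genotypes.

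Nes had the richest neighbourhood, with 53 FLAG and 194 SMC3 peaks summed over the 10 lists of each antibody, and 53 peaks in the 1 untreated CTCF antibody list. It is also the window with the most other genes: Mrpl24, Rrnad1, Isg20l2, Crabp2, Bcan and Hapln2 lie within it. FLAG peaks numbered 4 in WT, 8 in R339Q, 4 in R342C, 7 in S354F, 4 in K365T, 8 in R377C, 4 in R377H, 9 in Q418R, 4 in R448Q and 1 in H455R. R339Q, S354F, R377C and Q418R were above WT and H455R was below. The FLAG lists of these 4 mutants are longer than that of WT, and that of H455R is shorter. The lists of R342C, R377H and R448Q are also longer than that of WT and that of K365T is shorter, yet each had 4 peaks. The R448Q list (19403 peaks) is longer than that of R339Q (18808).

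Merged across genotypes, these peaks formed 12 sites, numbered here along the chromosome. Site 10 (chr3:88005938-88006689), 34.8 kb past the start and in no gene span, was the only 1 of all 27 FLAG sites near the 6 genes with a peak in every genotype. Its FLAG percentile was 51.1 in WT, 35.6 in R339Q, 48.4 in R342C, 46.5 in S354F, 65.0 in K365T, 75.2 in R377C, 78.0 in R377H, 81.4 in Q418R, 84.3 in R448Q and 13.0 in H455R. H455R was the lowest, and R448Q and Q418R the highest. SMC3 lay there in all genotypes, from percentile 80.5 in R377C to 97.7 in H455R, so the H455R peak was low for FLAG and high for SMC3 within their own lists.

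Site 7 of Nes (chr3:87986579-87987625), which reaches from the stretch between Nes and Bcan into the span of Bcan, the gene of the brain proteoglycan brevican, had FLAG in all genotypes but H455R. Its percentile was 60.7 in WT, 1.86 in R339Q, 43.3 in R342C, 70.7 in S354F, 75.7 in K365T, 86.0 in R377C, 80.6 in R377H, 42.6 in Q418R and 85.7 in R448Q. R339Q was thus near the bottom of its list. SMC3 was at percentile 87.3 in Q418R and 93.0 or above in the others, H455R included at 94.7, and the untreated CTCF antibody peak was at percentile 99.9.

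The other WT FLAG peaks at Nes were weak in WT. At site 3, inside Isg20l2 and 34.9 kb before the Nes start, the FLAG percentile was 2.03 in WT, 80.6 in R339Q, 8.22 in R342C, 33.0 in S354F, 72.6 in R377C, 5.23 in R377H and 22.1 in Q418R, with no peak in K365T, R448Q and H455R. R339Q and R377C therefore stood high at a place where WT and R377H were near the bottom of their lists. SMC3 was strong there in all 10 genotypes, from percentile 83.8 in K365T to 98.3 in R339Q. At site 11, 39.4 kb past the start, FLAG was at percentile 4.07 in WT, 71.7 in R339Q, 10.5 in K365T, 54.3 in R377C, 34.1 in R377H, 43.2 in Q418R and 58.3 in R448Q, and absent in R342C, S354F and H455R. SMC3 at site 11 was absent in R339Q, S354F, Q418R and H455R, so R339Q and Q418R had FLAG without SMC3 and R342C had SMC3 without FLAG. Site 11 joins FLAG peaks that are offset from each other. The WT peak ran from 88010693 to 88010901, that of R339Q from 88010843 to 88011457 and that of R377H from 88010893 to 88011082. These percentiles therefore need not describe the same place.

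At the Nes start itself WT had no FLAG peak. Site 6 (chr3:87970066-87971105) had FLAG in R339Q at percentile 77.0, S354F at 35.1 and R377C at 21.9, and only the R339Q peak reached over the start. SMC3 was listed at this site in WT (percentile 73.1) and in all mutants but K365T and Q418R, highest in R339Q at 94.8. The H455R peak (chr3:87970959-87971081, percentile 43.0) did not overlap the WT SMC3 peak (chr3:87970148-87970530). Site 5, 9.81 kb before the start, was similar: FLAG in R339Q, S354F, K365T and R377C, none in WT, and SMC3 in all genotypes but Q418R, at percentile 93.9 in WT. Both sites overlapped untreated CTCF antibody peaks.

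Only 2 sites had FLAG in at least 5 mutants and not in WT. Nes site 12 (chr3:88027877-88028166), 56.8 kb past the Nes start, had FLAG at percentile 74.9 in R339Q, 26.9 in R342C, 19.4 in S354F, 43.9 in R377C, 61.3 in Q418R and 39.8 in R448Q. SMC3 was there in WT, R377H and R448Q, at percentiles 75.4, 72.7 and 46.8, so R448Q alone had both. The other is the Olig2 site described below.

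**Figure D3:**
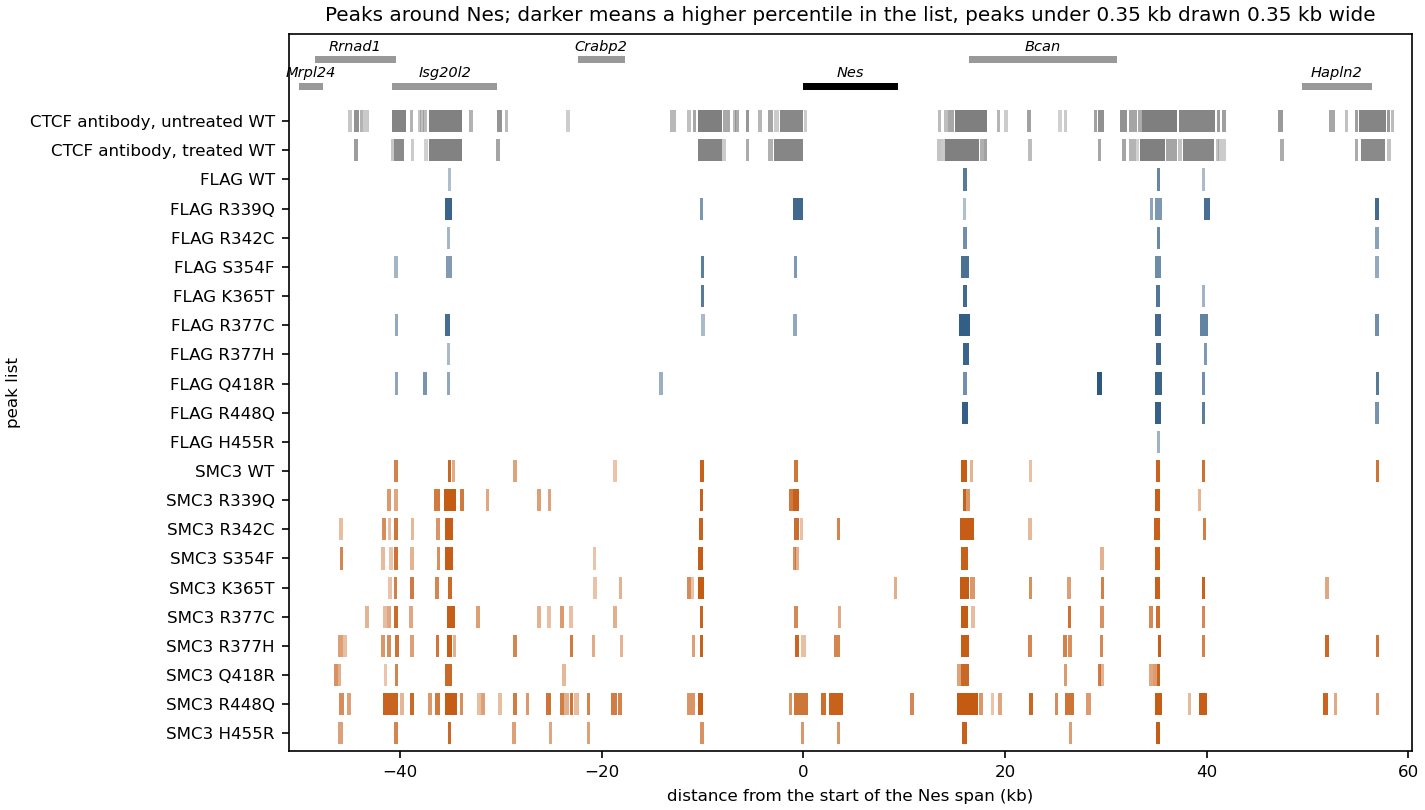
Peaks around Nes in each list (rows), by distance in kb from the Nes start, drawn as for Neurog2. FLAG peaks line up at about the same places across genotypes, mostly under wide untreated CTCF antibody peaks, and the H455R FLAG row holds 1 peak.

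Sox1 had no WT FLAG peak, and its FLAG counts were 1 in R339Q, 3 in R342C, 1 in K365T, 1 in R377C, 2 in R448Q and 0 in S354F, R377H, Q418R and H455R. They made 5 sites, all below percentile 42 in their lists. The site shared by most genotypes, chr8:12420618-12420878, lay 25.1 kb past the start within the long noncoding Sox1ot, with FLAG in R339Q, R342C and K365T. The site nearest the start, 3.67 kb before it, had FLAG in R377C alone, while SMC3 was listed there in WT, R339Q, S354F, R377C and R448Q. Of the 5 Sox1 sites, 3 overlapped no CTCF antibody peak.

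SMC3 counts at Sox1 were 5 in WT, 10 in R339Q, 15 in R342C, 8 in S354F, 13 in K365T, 18 in R377C, 8 in R377H, 7 in Q418R, 33 in R448Q and 4 in H455R. All mutants but H455R were above WT. Per 10000 peaks of the list this was 0.695 in WT (95% Wilson interval 0.297 to 1.63), 2.15 in R448Q (1.53 to 3.02) and 0.407 in H455R. The intervals of WT and R448Q overlapped, and H455R had fewer Sox1 peaks than WT from a longer list. Of the 121 Sox1 SMC3 peaks over 10 lists, 15 (12.4%) overlapped an untreated CTCF antibody peak, beside 64.9% of 194 at Nes, 83.3% of 24 at Neurog2 and 40.5% of all SMC3 peaks. These sums count a place again for each genotype that had a peak there, so no interval is given. SMC3 reached within 1 kb of the Sox1 start in R339Q, R342C, R377C, R377H, Q418R and R448Q but not in WT.

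Pax6 had no FLAG peak in any genotype, as did 14.3% of protein-coding genes. SMC3 peaks there were 1 in R342C, 2 in K365T, 1 in R377C, 1 in R377H and 5 in R448Q, with none in WT, R339Q, S354F, Q418R and H455R. None of these 10 overlapped an untreated CTCF antibody peak. The CTCF antibody gave 5 peaks untreated and 2 treated, the strongest inside the gene at chr2:105687174-105688244, at percentile 85.6 untreated and 77.3 treated. FLAG and SMC3 were not listed on that peak in any genotype.

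Zic1 was also sparse. Its 1 FLAG site, chr9:91384138-91384516, lay 18.4 kb before the Zic1 start inside the neighbouring Zic4, another gene of the Zic family. FLAG was there in Q418R, R448Q and H455R, at percentiles 46.0, 13.0 and 81.0, which makes it 1 of only 3 FLAG peaks that H455R had near the 6 genes. It overlapped the strongest untreated CTCF antibody peak of the window, at percentile 80.6. No genotype had SMC3 at that site, and the only SMC3 peak of the window, in H455R, lay elsewhere.

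Olig2 had FLAG at 3 sites, none in WT. The main one, chr16:91217991-91218256, lay 7.29 kb before the start within the strongest untreated CTCF antibody peak of the window (percentile 94.2). FLAG was at percentile 17.1 in R339Q, 11 in R342C, 18.1 in R377C, 51.6 in Q418R and 22 in R448Q. Q418R was the strongest of these 5, and it alone had the other 2 Olig2 sites, neither of which overlapped a CTCF antibody peak. SMC3 was at the main site in R342C, Q418R and R448Q. SMC3 peaks in the Olig2 window numbered 1 in WT, 6 in R339Q, 2 in R342C, 2 in S354F, 0 in K365T, 4 in R377C, 3 in R377H, 1 in Q418R, 4 in R448Q and 1 in H455R, and 6 of all 24 overlapped an untreated CTCF antibody peak.

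**Figure D4:**
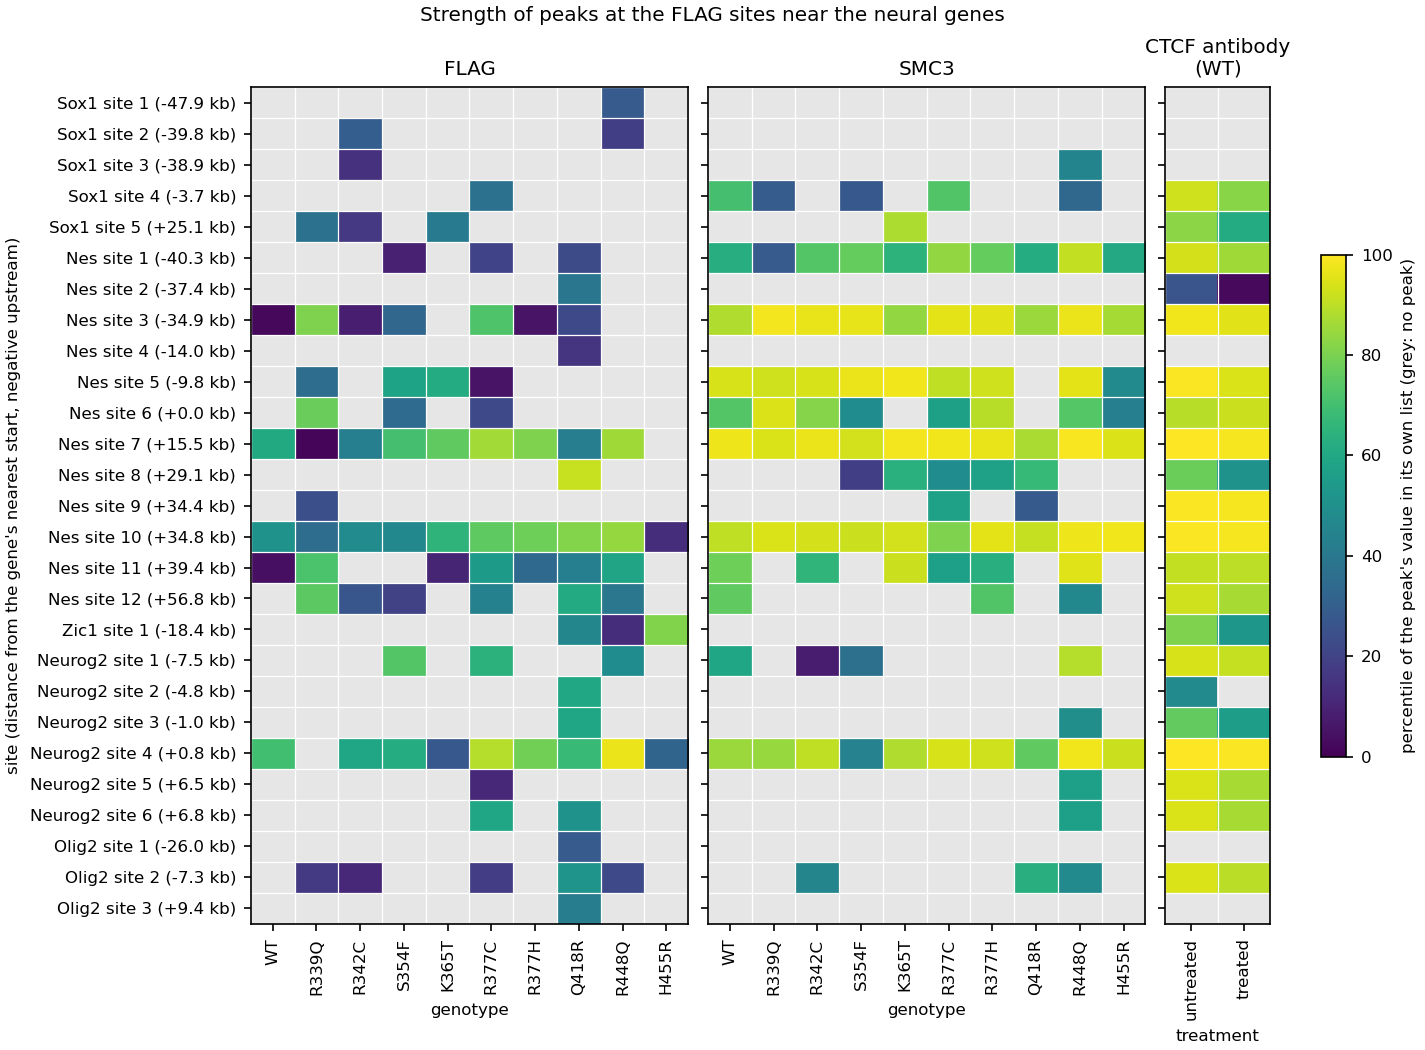
Percentile of the overlapping peak within its own list at each of the 27 FLAG sites (rows, named by gene with the distance in kb from the gene's start), for FLAG and SMC3 in each genotype and for the CTCF antibody in untreated and treated WT cells (columns). Grey means no peak. Nes site 10 is filled in every column, Neurog2 site 4 in all but FLAG R339Q, and the rows of Sox1, Zic1 and Olig2 are empty for WT FLAG.

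Of the 27 FLAG sites, 5 had FLAG in WT and 22 in mutants only, and 12 were seen in 1 genotype. Q418R accounted for 7 of those 12, R377C for 2, and R339Q, R342C and R448Q for 1 each. The Q418R list is among the longest, with 30332 peaks against 15392 in WT. Whole-list shares of mutant-only or single-genotype sites are not given here, so these counts are not shown to be particular to the 6 genes. Of the pair of substitutions at the same arginine, R377C had FLAG at 14 sites and R377H at 5. All 5 of R377H, which are the WT sites, were among those of R377C. The R377C list is also the longer, with 30462 peaks against 16473. No whole-list share of peaks common to this pair is given, so these counts are not shown to be particular to the 6 genes. At 21 of the 27 sites an untreated CTCF antibody peak was present. Of the mutant FLAG peaks near the 6 genes that touched no WT FLAG peak, 39 of 46 (84.8%) overlapped one, beside 69.3% of such peaks in the whole lists. These 46 peaks count a site once for each mutant that had it, so they are not independent and no interval is given. Counted by site, 16 of the 22 mutant-only sites overlapped one. No whole-list share counted by site is given for this count, for the 21 of 27 or for the sites of single genes.

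At the 5 WT FLAG peaks, R377C, R377H and Q418R each had a FLAG peak at all 5, beside 89.6%, 71.8% and 59.2% of all 15392 WT FLAG peaks. R339Q had 4 (all but Neurog2), beside 53.1%. R342C and S354F each had 4, beside 72.2% and 86.2%, and lacked the same Nes peak (site 11). K365T and R448Q also had 4, beside 52.1% and 75.2%, and lacked Nes site 3. H455R had 2 (Nes site 10 and Neurog2), beside 10.5%. With 5 peaks, a count of 4 has an interval of 37.6 to 96.4% and a count of 2 one of 11.8 to 76.9%, and the interval of each mutant but H455R held its whole-list share. For H455R that ended in a window of 100 kb (2 of 7, 8.22 to 64.1%), in a window of 10 kb (1 of 2, 9.45 to 90.5%) and without Neurog2 (1 of 4, 4.56 to 69.9%). When the 2 peaks had to share at least 50% of each other's length, R339Q fell to 0 of 5 and R377C to 2 of 5. R377H fell to 4 of 5, and S354F, Q418R and R448Q to 3 of 5 each. R342C, K365T and H455R kept their counts. In the upper 50% of each list H455R had 0 of 3 and R342C 1 of 3. The whole-list shares above are for 1 shared bp and full lists. None is given for these other settings, so whether the falls are particular to these peaks was not tested.

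All 5 WT FLAG peaks had WT SMC3, beside 81.2% of all WT FLAG peaks. In the mutants 54 of 83 FLAG peaks near the 6 genes overlapped SMC3 of the same genotype, beside 59.4%. By mutant these were 6 of 6 in K365T (whole list 78.5%), 5 of 5 in R377H (69.9%), 8 of 9 in S354F (59.1%), 7 of 10 in R448Q (76.0%) and 9 of 14 in R377C (47.1%). The counts were 2 of 3 in H455R (46.3%), 5 of 9 in R342C (77.2%), 5 of 10 in R339Q (58.7%) and 7 of 17 in Q418R (39.6%), so the low count of Q418R stood beside the lowest whole-list share.

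Of the 22 WT SMC3 peaks near the 6 genes, SMC3 was also listed in R339Q at 11 (50.0%), beside 50.5% of all WT SMC3 peaks. R342C had 15 (68.2%, beside 73.3%), S354F 12 (54.5%, beside 53.7%), K365T 10 (45.5%, beside 57.8%), R377C 16 (72.7%, beside 60.7%) and R377H 16 (72.7%, beside 69.0%). The intervals of those 6 mutants held the share of their whole lists. Q418R had 5 (22.7%, interval 10.1 to 43.4, beside 29.3%) and R448Q 20 (90.9%, interval 72.2 to 97.5, beside 77.8%), and their intervals held those shares too. H455R had 8 (36.4%, interval 19.7 to 57.0, beside 60.2%). H455R lacked 4 of the 5 Sox1 peaks and 7 of the 13 Nes peaks, and its interval did not reach its whole-list share. It did reach it without Sox1 (41.2%, 21.6 to 64.0) and in a window of 10 kb (37.5%, 13.7 to 69.4), and without Nes the interval of K365T missed its share too (22.2%, 6.32 to 54.7). The names given to SMC3 peaks hold a code that no label explains: b2 in R339Q, b3 in Q418R, b1 with b2 in S354F and R377C, and b1 alone in H455R, R448Q, R377H, K365T, R342C and WT. The mutants with b1 alone spanned 8 to 20 of 22, the others 5 to 16, and the part of the code in these counts was not tested. With 50% reciprocal overlap R448Q fell to 27.3% and R342C to 36.4%, and no whole-list share is given for that rule.

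**Figure D5:**
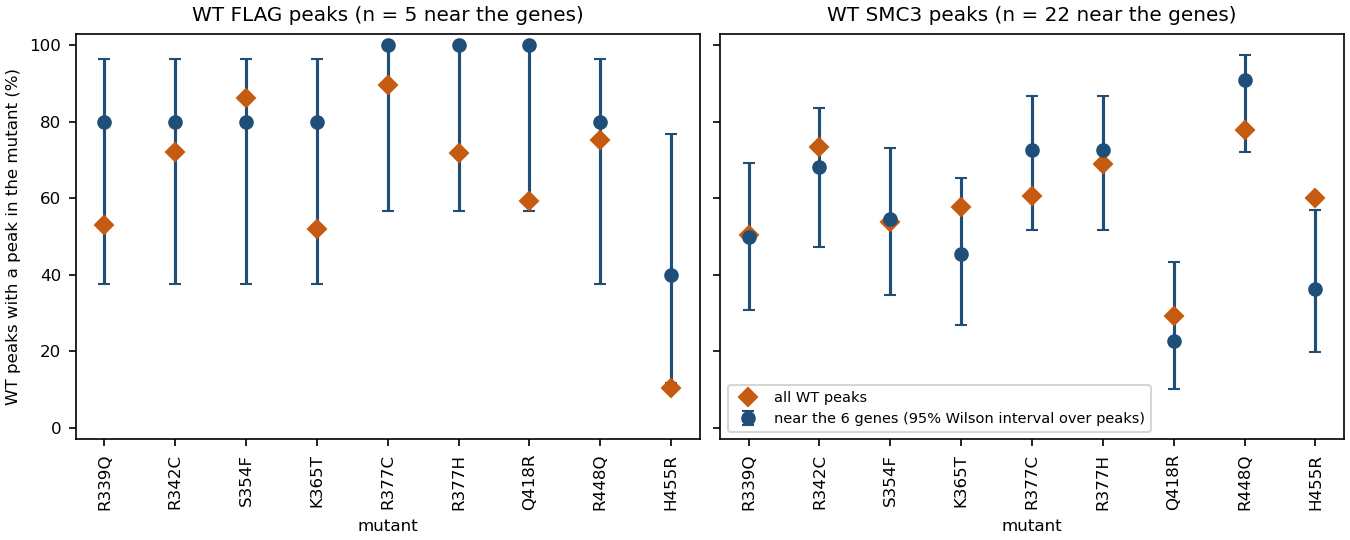
Percent of WT FLAG peaks (left) and WT SMC3 peaks (right) with an overlapping peak in each mutant (x axis): circles for those near the 6 genes with 95% Wilson intervals over peaks, diamonds for all WT peaks. For H455R the diamond lies outside the interval in both panels, which ends for FLAG in a 100 kb window (8.22 to 64.1%) and for SMC3 without Sox1 (21.6 to 64.0%).

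WT SMC3 peaks on CTCF antibody peaks were shared by more mutants than the others and were also stronger, with a median WT percentile of 74.3 against 34.9. The part of strength in the sharing was not tested. The 14 that overlapped an untreated CTCF antibody peak had SMC3 in a median of 6 of 9 mutants, and 5 of them, at Nes sites 1, 3, 7 and 10 and at Neurog2, in all 9. The 8 that overlapped none had a median of 3, and none of them was found in all 9. Over the whole WT SMC3 list the medians were 7 and 5, in the same order. The WT SMC3 peak 31.2 kb past the Neurog2 start was in no mutant.

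The CTCF antibody lists compare untreated WT cells with WT cells treated to remove the endogenous protein and express the transgene. How much endogenous protein was left after treatment was not measured here. Near the 6 genes 46 of 92 untreated peaks (50.0%, 40.0 to 60.0) overlapped a treated peak, beside 56.9% of all 175815. By gene this was 3 of 8 at Sox1, 2 of 5 at Pax6, 29 of 53 at Nes, 1 of 3 at Zic1, 6 of 12 at Neurog2 and 5 of 11 at Olig2. Peaks with a treated counterpart were the stronger ones, with a median untreated percentile of 74.0 against 24.5. The 12 peaks in the upper 10% of the untreated list, 7 of them at Nes, 3 at Neurog2, and 1 each at Sox1 and Olig2, all had a treated peak and a FLAG peak in at least 1 genotype, beside 100.0% (17581 of 17582) and 94.2% of such peaks in the list. With a 50% reciprocal overlap the share with a treated peak was 31.5%, and no whole-list share is given for that rule.

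Within 1 kb of a start FLAG was listed in at least 1 genotype at 2 of the 6 members, beside 20.6% of the 17491 protein-coding genes with a start in the RefSeq table. It was listed at Neurog2 in 8 of 10 genotypes (the R342C peak began farther in, and R339Q had none) and at Nes in 3, and at no other member. SMC3 was within 1 kb of a start at 3 of 6 members, beside 66.3%: in 8 genotypes at Nes, 6 at Neurog2 and 6 at Sox1, and in none at Pax6, Zic1 and Olig2.

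A wider list of 50 neural genes, which was chosen with results of these data known, gave the following counts. WT FLAG peaks lay within 50 kb of 29 of them (58.0%, beside the 63.2% of all protein-coding genes) and WT SMC3 peaks of 40. The median number of WT FLAG peaks was 1 in this list, 1 over all protein-coding genes and 0 over the 6 members, and for untreated CTCF antibody peaks it was 10, 16 and 9.5. Of the 58 WT FLAG peaks near the wider list, S354F had 56 (96.6%, beside 86.2% of all WT FLAG peaks), R377C 55 (94.8%, beside 89.6%), R342C 49 (84.5%, beside 72.2%) and R448Q 45 (77.6%, beside 75.2%). R377H had 42 (72.4%, beside 71.8%), Q418R 37 (63.8%, beside 59.2%), K365T 34 (58.6%, beside 52.1%), R339Q 32 (55.2%, beside 53.1%) and H455R 10 (17.2%, beside 10.5%). The Neurog2 peak was missing in R339Q alone, as were 2 of the 58 and 1.03% of all WT FLAG peaks. The genes with the most WT FLAG peaks were Pax7, a factor of dorsal neural tube and muscle progenitors, with 7, and the proneural Neurog1 and Neurog3 with 4 each.

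Among protein-coding genes outside the 6 windows, the 1 with the most similar peak numbers over the 22 lists was taken for each member, by the smallest mean absolute difference. It was Actrt2 for Sox1 (a mean difference of 1.95 peaks per list), Fcgr1 for Pax6 (0.227, tied with 4 others), Dpm3 for Nes (2.5), Olfr502 for Zic1 (0.0909), Yipf6 for Neurog2 (0.682) and Bcl2a1c for Olig2 (0.591). The median difference to all genes ran from 3.41 peaks for Neurog2 to 10.5 for Nes.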

How the data were processed

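ChIPmentation peaks were analysed from 22 pooled lists for 22 of 24 groups of 2 replicates (48 samples), with groups taken from the labels. FLAG in untreated WT cells and IgG were not analysed here. Trim Galore, Bowtie2, MACS2, deepTools and mm10 are named per the submitters' processing notes, with versions not given in these sources. The deposited value of each peak is a score whose measure is not stated, so it was used only as a percentile within its list. The authors pooled replicates before deposit, which leaves no spread between samples, and p-values cannot be had. Intervals are 95% Wilson intervals and cover counting error only. Overlapping lines of a list were merged, and peaks were matched by at least 1 shared bp. Windows came from RefSeq GRCm38.p6 and were symmetric (50 kb). All 6 members were named, with every WT FLAG site, sites in at least 5 mutants without WT FLAG, the strongest untreated CTCF antibody peak, the gene most alike and the 3 wider-list genes with most WT FLAG sites. Members and lists were chosen with earlier results of these data known. Alternatives were reciprocal overlap, a 500 bp gap, the upper 50% of each list, equal numbers of top peaks, other windows and leaving out each gene. Overlap counts were tested on simulated data and against bedtools 2.31.1, with Python 3.11.15, numpy 2.4.6 and pandas 2.3.3.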

Additional observations from a re-analysis of the deposited data

How the results depend on the processing

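Of 248 alternative values for 22 results, 213 stayed within the main value's interval (counts within 1.5 times) and 35 moved, 18 up and 17 down; none had a test. No paired analysis was possible because each group's 2 replicates were pooled into 1 list. Whole-list shares are not given for the other matching rules or the shortened lists. With 50% reciprocal overlap, the share of WT FLAG peaks with a mutant peak was 0.0% in R339Q and 40.0% in R377C. For WT SMC3 it was 36.4% in R342C, 50.0% in R377C and 27.3% in R448Q, and untreated CTCF antibody peaks with a treated peak were 31.5%. A gap of up to 500 bp raised the last to 65.2%. In the upper 50% of each list 3 WT FLAG peaks were left, with 0.0% in R339Q, 33.3% in R342C, 100.0% in R448Q and 0.0% in H455R. When lists were cut to the same length by value, R448Q SMC3 was 71.4% and the CTCF antibody share 70.2%. Within 10 kb there were 2 WT FLAG peaks, with 100.0% in R342C, S354F, K365T and R448Q, and SMC3 shares were 75.0% in R339Q, 87.5% in R342C, 75.0% in S354F, 87.5% in R377C and 100.0% in R448Q. Leaving out 1 gene at a time gave 1 to 5 WT FLAG peaks and 1 to 2 genes with one. FLAG shares then ran from 0.0 to 100.0% in R339Q, 25.0 to 100.0% in H455R, and 75.0 to 100.0% in R342C, S354F, K365T and R448Q, with the extremes without Nes or without Neurog2. SMC3 shares ran from 22.2 to 52.9% in K365T. The small number of peaks is the limit: 4 of the 5 WT FLAG peaks are at Nes, and read depth is not given.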
